A study of Mus musculus with 4 samples.

Results

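The comparison set the white adipose tissue of the second generation (F2) of mice on a high fat diet against that of the first (F1), by 1 Illumina mouse bead array on each side, 2 of the 4 arrays of the study. All groups were female mice of the inbred strain C57BL/6 at an age of 9 months. The F1 and F2 groups, like the founding F0 group, were fed a diet in which fat supplied 60% of the calories, and the control group received normal chow. The labels give 9 months of feeding for each group. Each high fat array held RNA mixed from 4 samples and the chow array RNA mixed from 3 samples. The labels name neither the fat depot nor the parents' mating scheme, nor do they state if a mix drew on several animals. Genes were taken where at least 1 probe was detected on either array, that is, brighter than nearly all negative control beads (detection p below 0.01). This left 10677 genes of 11384 in the whole series. Of these, 9595 were detected on both arrays, 263 on the F1 array alone and 819 on the F2 array alone.

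White adipose tissue stores triglyceride in adipocytes, which also secrete hormones such as leptin and adiponectin. Obesity adds macrophages and other immune cells to the vascular and stromal cells of the tissue. Many fat pads enclose lymph nodes, in which B and T cells gather around high endothelial venules and stromal cells that release homing chemokines. Levels below are log2 normalized signals of a gene's brightest probe, and they are compared between arrays, not between genes. Runs of 4 values follow the order chow, F0, F1, F2. A gene was counted where the arrays lay at least 2-fold apart, a log2 difference of 1, and the brighter array detected it. The pooling left 1 array a side, so no difference here has a replicate check or a test, and this small number of arrays sets the precision. The technical gauge these arrays offer is the gap between the F2 minus F1 differences of a gene's brightest and second probe. Both probes read the same RNA pools on the same arrays, so the gauge holds no spread between pools. It had an SD of 0.283 on the log2 scale over the 3338 genes for which more than 1 probe was detected on F1 and F2. Of 76 such genes at least 2-fold apart, 75 had the same sign on the second probe.

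On the F2 array many transcripts of lymphocytes, lymph node stroma, mast cells and liver were higher than on the F1 array, as were the hormone genes Prl and Gh, with slightly lower signals of nearly every adipocyte and endothelial transcript measured. By at least 2-fold, 352 of 10677 genes were higher on the F2 array, or 3.3%, and 91 were lower, or 0.852%. The increases were also the larger ones: 80 genes were at least 4-fold higher and 35 at least 8-fold higher, whereas 0 were at least 4-fold lower. The median over all genes was -0.06, with quartiles of -0.31 and 0.20. Of the 352 higher genes, 97 were not detected on the F1 array, and 6 of the 91 lower genes were not detected on the F2 array. Among the 9858 genes detected on the F1 array, 2.59% were higher and 0.923% lower. When a gene not detected on 1 of the arrays was set there to the dimmest detected signal, called the bound below, 312 genes were higher and 87 lower. At a fold of 1.5 the order turned, with 792 genes higher and 871 lower, and without background correction the 2-fold counts were 188 higher and 25 lower. Just inside the limit lay Zfp296 at 1.006 and Gtf2ird1 at -1.002, and just outside it Panx1 at 0.999 and Kcnk3 at -0.997. By the signal on the brighter array, the higher genes made up 1.66% of 2585 genes below a log2 of 6, 4.42% of 3529 genes from 6 to 8, 3.75% of 2961 from 8 to 10 and 2.62% of 1602 above 10. In the same bins the lower genes made up 0.309, 1.28, 1.08 and 0.375%.

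**Figure D1:**
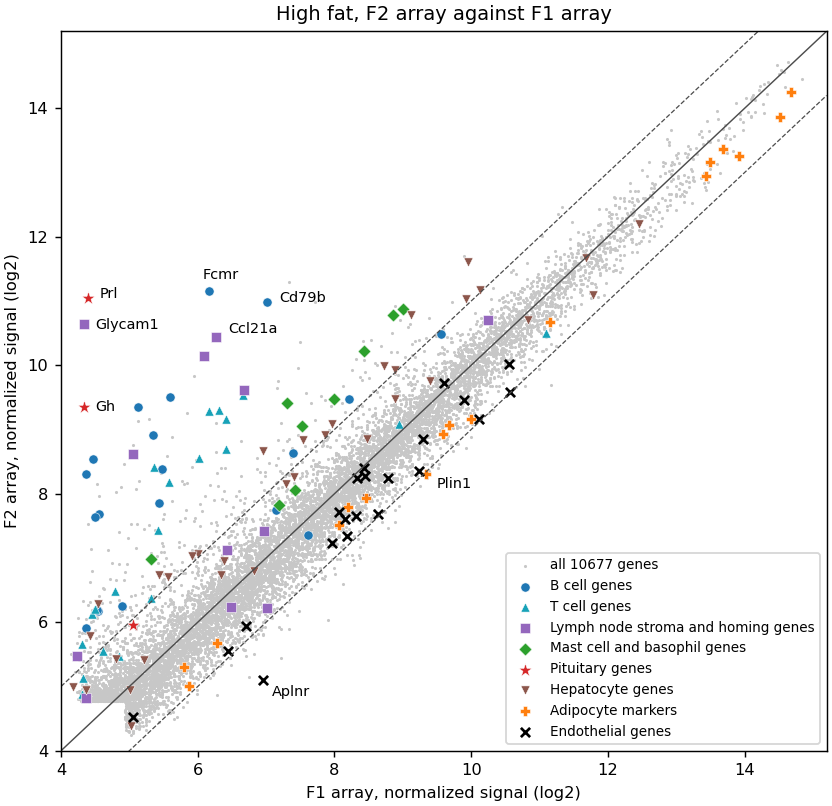
Normalized signal (log2) of all 10677 genes on the F1 array (x axis) and the F2 array (y axis), 1 point per gene, with the members of 8 gene lists marked. The solid line marks equal signals and the dashed lines a 2-fold difference. Prl, Glycam1 and Gh lie at the left edge, not detected on the F1 array, and the adipocyte markers (orange) lie below the solid line.

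A pair of pituitary hormones was bright on the F2 array alone. Prl, which encodes prolactin, the lactation hormone of the anterior pituitary, was not detected on the chow, F0 and F1 arrays, where its log2 signals were 4.29, 4.33 and 4.40, and lay at 11.04 on the F2 array. Against the lowest detected signal of the F1 array, 4.94, this was at least 68.9-fold higher. Gh, which encodes growth hormone, lay at 4.22, 4.36 and 4.34 on the chow, F0 and F1 arrays, not detected, and at 9.35 on the F2 array, at least 21.3-fold higher. Among 13 pituitary genes with a probe, 3 were detected on F1 or F2. The third detected gene, Dlk1, an inhibitor of adipogenesis also made by preadipocytes, read 7.14, 4.90, 5.06 and 5.96 from chow to F2. Unlike Prl and Gh, it was brightest on chow. Pomc, Cga, Lhb and Tshb, which encode the other hormone precursors and subunits of the anterior pituitary, were not detected on any array, with F2 signals of 4.74, 4.41, 4.25 and 4.30, and 10 of the 13 genes in all were not detected on F1 or F2. The receptor gene Ghr, which responds to growth hormone, differed by -0.64 (12.12 on F1 and 11.48 on F2).

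Pit-1 is the transcription factor of the pituitary cells that make both hormones, and its core motif, TATNCAT, was looked for on both strands of the RefSeq promoter of Prl (GRCm38.p6, chr13:27057320-27057619, plus strand, 250 bases before to 50 after the gene's start). The promoter is shown because Prl had the largest measured difference of all genes. Capitals mark the motif, which begins 148 and 47 bases before the start, the former on the opposite strand. Of the detected pituitary genes, 2 had a promoter in the RefSeq table, and the motif stood in 1 of the 2, that of Prl and not that of Dlk1. It was present in 9.04% of 27025 promoters of the same length. This motif was added to the search after the values were seen.

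Prl: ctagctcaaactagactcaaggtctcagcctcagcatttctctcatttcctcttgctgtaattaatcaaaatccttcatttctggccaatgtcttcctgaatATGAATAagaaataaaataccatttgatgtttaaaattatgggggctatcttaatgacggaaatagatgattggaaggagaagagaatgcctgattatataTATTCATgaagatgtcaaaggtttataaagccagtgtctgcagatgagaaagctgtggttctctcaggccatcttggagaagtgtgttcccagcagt

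Several lymph node transcripts were higher as well. Glycam1, the mucin on high endothelial venules that lymphocytes roll on through L-selectin, was not detected on the chow, F0 and F1 arrays (4.38, 4.49 and 4.34) and lay at 10.65 on the F2 array, at least 52.4-fold higher. Of 17 listed genes of lymph node stroma and homing with a probe, 12 were detected on F1 or F2, and 6 of the 12 passed 2-fold on the higher side, or 5 at the bound, and 0 on the lower. Because 3 of the 12 were detected through the F2 array alone, the median of 0.97 came to 0.62 at the bound. Of the 9 members detected on F1, 4 were higher. Ccl21a and Ccl21c, near-identical copies, were counted separately. The summed linear signal of the 12 genes was 9073, 1549, 1978 and 7520 from chow to F2, so the chow array was highest in the sum.

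Ccl21a, a chemokine that draws T cells and dendritic cells into the node, read 11.74, 5.40, 6.26 and 10.44 from chow to F2. The F2 value was thus 18.2-fold above the F1 value and still under that of chow, so the F1 and F0 arrays were the low ones. Ccl21c, a near-identical copy whose probes may share its signal, went from 6.09 to 10.14. Ccl19, the other ligand of the receptor Ccr7, read 5.96, 6.05, 6.67 and 9.62, which made the F2 array the high one, 7.76-fold above F1. Ccr7 itself was detected on the F2 array alone, at 5.48, at least 1.46-fold higher. Ltb, the lymphotoxin that builds lymphoid tissue, read 4.88, 5.50, 5.05 and 8.62, 11.9-fold higher on F2 than on F1, while the gene of its receptor, Ltbr, differed by -0.79. The follicular chemokine gene Cxcl13 differed by 0.70, and the lymphatic vessel genes Lyve1 and Prox1 by 0.45 each. Madcam1, an addressin of mucosal venules, was not detected on any array, nor were Fut7 and Flt4 of the same list. Chst4, also of this list, was detected on the chow array alone, at 5.82, and read 4.65 on F2.

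**Figure D2:**
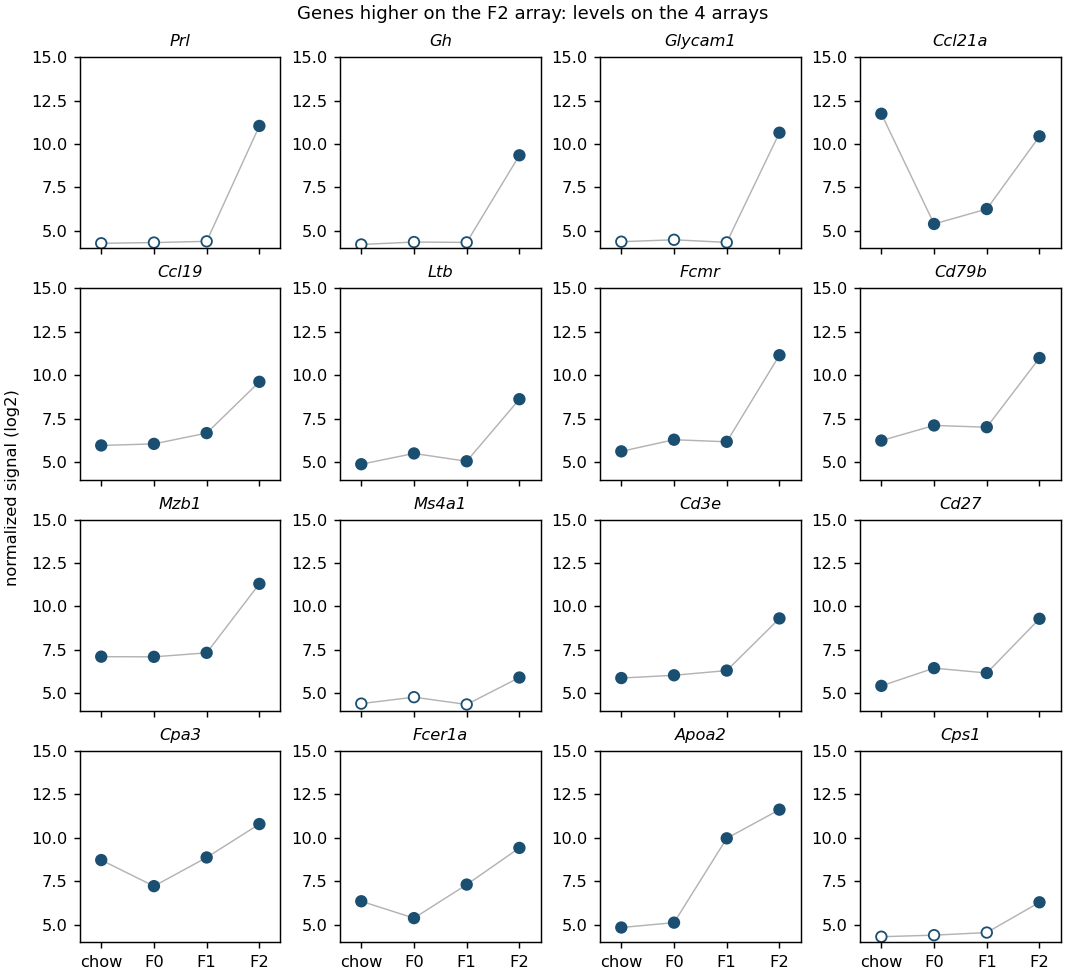
Normalized signal (log2, y axis) of 16 genes higher on the F2 array, by array (x axis, 1 array per group; open symbols were not detected). Prl, Gh and Glycam1 were detected on the F2 array alone, Ccl21a was also bright on the chow array, and Apoa2 was already bright on the F1 array.

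B cell transcripts were higher as a group. Of 22 B cell genes with a probe, 20 were detected on F1 or F2, and 17 of the 20 passed 2-fold on the higher side, or 16 at the bound, and 0 on the lower, against 3.3% and 0.852% of all genes. All 20 were detected on F2 and 12 on F1, and 9 of those 12 were higher. The median difference was 2.66, and 2.55 at the bound. The summed linear signal of the 20 genes was 1108 on the chow array, 1719 on F0, 2154 on F1 and 11030 on F2. In such bulk RNA, more cells of a type and more RNA per cell cannot be told apart.

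Among parts of the B cell receptor and its signalling, Cd79b, a signalling chain of the receptor, read 6.24, 7.11, 7.01 and 10.99 from chow to F2, 15.7-fold higher on F2 than on F1. The F2 array was alone in its high value, and the other 3 lay from 6.24 to 7.11. Blk, a Src family kinase of B cells, was detected at 5.40 on chow and 8.54 on F2 but not on F0 or F1, at least 12.2-fold higher. Cd22, an inhibitory lectin of the receptor, differed by 2.41, Btk, the kinase downstream of the receptor, by 1.26 and Blnk, its adaptor, by 0.62. Surface receptors lay on the same side. Fcmr, the receptor for immunoglobulin M, read 5.62, 6.29, 6.17 and 11.15, 31.6-fold higher than on F1 and the largest fold among genes detected on both arrays. Ly6d, a marker of B lineage commitment, read 7.90, 5.85, 5.12 and 9.35, so that chow stood between F1 and F2. Fcer2a, the low-affinity receptor for immunoglobulin E, differed by 2.90, Fcrla, an intracellular protein related to Fc receptors, by 3.91 and Ms4a1, which encodes CD20, was detected on F2 alone at 5.91, at least 1.96-fold higher. Tnfrsf13c, the receptor through which the survival factor BAFF keeps B cells alive, was detected on F2 alone at 8.31, at least 10.4-fold higher. The gene of its ligand, Tnfsf13b, differed by 0.78. The inhibitory lectin gene Siglecg was detected on F2 alone, at least 8.99-fold higher by its brightest probe, while the log2 difference was 2.07 when its 2 probes were averaged, and Btla, an inhibitory receptor of lymphocytes, differed by 3.89. Transcription factors of the lineage were divided. Pou2af1, the coactivator of octamer-binding factors, went from 5.35 to 8.92, Spib differed by 1.63, Ebf1, which fat progenitors also express, by -0.25, and Pax5 was not detected on any array, with an F2 signal of 4.33. Cr2 was not detected either.

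The octamer ATTTGCAT, the motif that Pou2af1 and its partner factors bind, was looked for on both strands of the 15 promoters that RefSeq gives for the 20 B cell genes. It stood in 2 of them, 13.3%, against 1.75% of all 27025 promoters. Both are shown with the octamer in capitals. In Vpreb3 (GRCm38.p6, chr10:75948050-75948349, plus strand), a protein of pre-B cells, it begins 45 bases before the gene's start. In Blnk (chr19:40994172-40994471, minus strand) it begins 130 bases before the start. The arrays differed between them: Vpreb3 went from 4.56, not detected, to 7.69, and Blnk from 7.14 to 7.75.

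Vpreb3: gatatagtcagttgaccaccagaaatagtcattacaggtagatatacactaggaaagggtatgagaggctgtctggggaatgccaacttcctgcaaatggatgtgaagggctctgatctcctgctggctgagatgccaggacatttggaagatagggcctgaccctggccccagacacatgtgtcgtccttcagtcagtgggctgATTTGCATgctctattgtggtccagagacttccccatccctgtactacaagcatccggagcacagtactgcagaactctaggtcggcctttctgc

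Blnk: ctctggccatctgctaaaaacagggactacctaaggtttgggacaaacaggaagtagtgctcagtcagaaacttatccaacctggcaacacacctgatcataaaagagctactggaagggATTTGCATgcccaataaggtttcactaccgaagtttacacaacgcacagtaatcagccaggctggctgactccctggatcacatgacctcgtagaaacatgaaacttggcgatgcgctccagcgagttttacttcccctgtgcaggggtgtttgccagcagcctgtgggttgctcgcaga

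Antibody-secreting cells share some of these genes. Of 8 detected plasma cell and immunoglobulin genes, 6 of them detected on F1, 4 passed 2-fold upward and 0 downward, and the median was 1.07. Mzb1, an endoplasmic reticulum chaperone for antibody assembly that marginal zone B cells also hold, read 7.11, 7.10, 7.33 and 11.30 from chow to F2, 15.6-fold higher on F2. Ighg1, an immunoglobulin heavy chain gene, was detected on chow at 5.29 and on F2 at 7.12, at least 4.53-fold higher than on F1. Irf4, a factor that plasma cells require, differed by 1.46. Unlike Mzb1, Irf4 was brightest on the chow array, at 8.26, and its F2 signal lay between those of F1 and chow. Others of the list were close: Xbp1, the factor of the secretory programme, differed by 0.38, Sdc1, the plasma cell syndecan, by 0.23 and Tnfrsf17, their survival receptor, by 0.67. Jchain and Prdm1 were not detected on F1 or F2.

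T cell transcripts were higher too, by smaller folds. Of 25 T cell genes with a probe, 20 were detected on F1 or F2, 12 of them on F1. At least 2-fold higher were 14 of the 20, or 13 at the bound, with 0 lower, and 10 of the 12 detected on F1. The median was 1.70, and 1.40 at the bound. The summed linear signal was 3515 on F1 and 6691 on F2, beside 2624 on chow and 3499 on F0. The chains of the CD3 complex, which signal for the T cell receptor, lay together: Cd3d went from 6.66 to 9.54, Cd3e from 6.31 to 9.31 and Cd3g from 6.42 to 9.16. On the chow and F0 arrays Cd3e read 5.88 and 6.04, so the F2 array stood above all 3 others. Trbv13-2, a variable segment of the T cell receptor beta chain, read 6.97, 7.87, 7.72 and 10.98, a log2 difference of 3.26 that was 2.59 when its probes were averaged. Zap70, the kinase recruited by the receptor, was 6.08-fold higher (2.60 on the log2 scale, against 1.92 when its probes were averaged). Cd27, a costimulatory receptor, differed by 3.12, but by 2.0 when its probes were averaged, and the lineage factor Bcl11b by 3.06. Markers of T cell subsets were less clear. Cd4 was detected on F2 alone, near the limit, at 4.89, Cd8a was not detected on any array, Cd8b1 differed by -0.59 and Foxp3, the factor of regulatory T cells, by 0.14. Of 9 detected NK and cytotoxic genes, 5 on F1, 4 passed 2-fold upward, or 3 at the bound and 3 of those detected on F1, and 0 downward, and the median was 1.0, or 0.79 at the bound. Ctsw, a cathepsin of cytotoxic cells, differed by 1.66, the receptor gene Klrd1 by 1.64 and the granule gene Nkg7 by 1.53, whereas Prf1, which encodes perforin, differed by 0.05.

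Receptors that lead lymphocytes through tissue were among the higher genes. Of 8 detected chemokine receptors, 5 on F1, 6 passed 2-fold upward, or 5 at the bound and 4 of those detected on F1, and 0 downward, and the median was 1.34, or 1.24 at the bound. Ccr6, a receptor of B cells and some T cells, read 4.99, 5.05 and 8.76 on F0, F1 and F2, a 13.1-fold difference (3.71 on the log2 scale, against 3.10 when its probes were averaged), and was not detected on chow. Cxcr5, which leads B cells to Cxcl13, was detected on F2 alone at 7.64, at least 6.49-fold higher. Cxcr3, a receptor of activated T cells, differed by 1.84, Cxcr4, the receptor for Cxcl12, by 1.44 and Ccr2, the receptor of inflammatory monocytes, by -0.32. Of 21 detected chemokine ligands, 3 were at least 2-fold higher: Ccl21a, Ccl19 and Ccl5, a ligand made by T cells, which went from 8.62 to 10.01. The monocyte attractant gene Ccl2 differed by -0.46 and the eosinophil attractant gene Ccl11 by -0.76. Cxcl12 differed by -0.79 by its brightest probe and by 0.11 when its 3 probes were averaged, so its direction depends on the probe. Antigen presentation split by gene. H2-Oa and H2-Ob, the B cell chains that hold back peptide loading, went from 5.84 to 9.26 and from 5.13 to 9.13, and Ciita, the master regulator of MHC class II, from 7.25 to 8.68. The class II chains themselves differed by less, H2-Aa by 0.26, H2-Ab1 by 0.56 and H2-Eb1 by 0.43. Over the 19 detected dendritic cell and class II genes, 4 were higher, or 3 at the bound, and 0 lower, with a median of 0.43. Of the 19 differences, 16 were above 0 and 3 below.

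Mast cell transcripts were higher by similar folds. All 9 detected members of the mast cell and basophil list were detected on both arrays, and 7 passed 2-fold upward and 0 downward, around a median of 1.66. Fcer1a, the chain of the receptor that binds immunoglobulin E, read 6.34, 5.37, 7.30 and 9.41 from chow to F2, 4.31-fold higher on F2 than on F1. Cpa3, the granule carboxypeptidase, read 8.71, 7.21, 8.86 and 10.78, and Mcpt4, a chymase, 8.53, 7.24, 9.01 and 10.88. In these 3 genes the F0 array was lowest, chow and F1 lay between and F2 was highest. The chymase gene Cma1 differed by 1.8, the tryptase gene Tpsab1 by 1.66 and Hdc, the histamine-forming enzyme, by 1.53. Kit, the receptor for the mast cell growth factor, and the lineage factor Gata2, both also expressed by other cells, differed by 0.63 each. The summed linear signal of the 9 genes was 2416, 989.8, 2282 and 7380 in the order of arrays.

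Macrophage transcripts, by contrast, were mostly only a little higher on the F2 array than on the F1 array. Of 21 markers, all detected on both arrays, 19 differences were above 0 and 2 below, around a median of 0.21. At least 2-fold higher were 3, or 14.3%, and 1 was lower, or 4.76%, against 3.3% and 0.852% of all genes. The summed linear signal of the markers was 9768, 30740, 42550 and 51280 from chow to F2. Adgre1, which encodes the macrophage antigen F4/80, read 8.13, 10.12, 10.72 and 11.05 from chow to F2, a difference of 0.33 between the last pair. Csf1r, the receptor for the macrophage growth factor, differed by 0.03, Itgam by 0.06 and Itgax by 0.21. Those past the limit were Clec4d, an activating lectin of myeloid cells, which went from 8.42 to 10.38, the protease gene Ctss at 1.10, the fractalkine receptor gene Cx3cr1 at 1.05, and on the lower side Cd163, the haemoglobin scavenger receptor of resident macrophages, at -1.03. The 15 detected genes of lipid-associated macrophages centred on a median of 0.03, with Trem2 at 0.12 and Gpnmb at 0.26. Mmp12, the macrophage elastase, was the 1 member at least 2-fold higher, going from 9.72 to 10.99. Tnf differed by 0.40, and Il6 was not detected on any array.

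**Figure D3:**
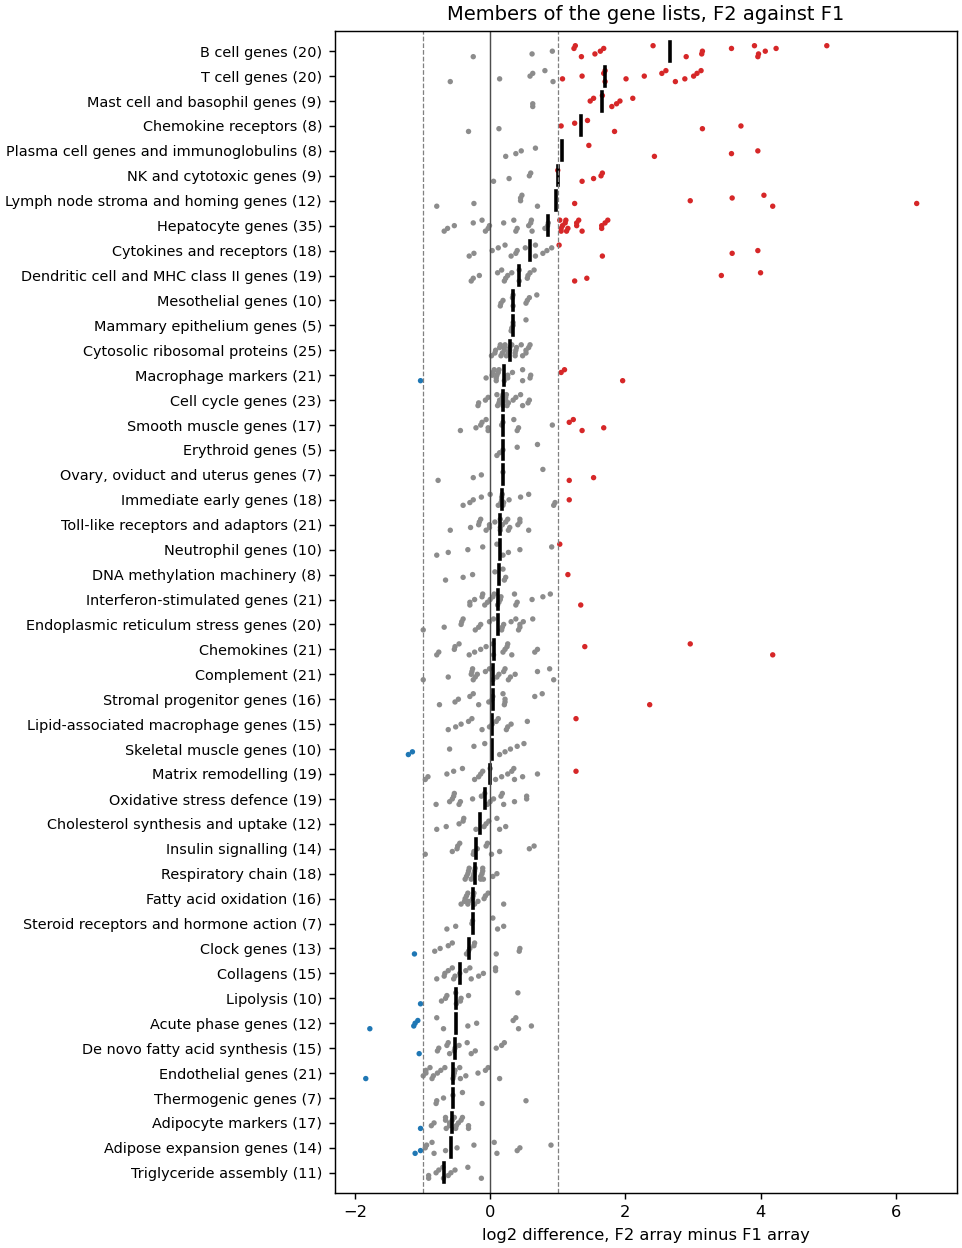
Log2 difference between the F2 and the F1 array (x axis) of every detected member of each list (rows, with the number of detected members in brackets; lists under 5 members are not drawn). Red points are at least 2-fold higher on F2 and blue points at least 2-fold lower, grey points lie between or miss the detection rule, the black bar is the list's median and dashed lines mark 2-fold. B cell genes have the highest median, 2.66, and triglyceride assembly genes the lowest, -0.69.

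Many liver-type transcripts were higher on the F2 array than on the F1 array. Of 43 hepatocyte genes with a probe, 35 were detected on F1 or F2, 30 of them on F1. At least 2-fold higher were 16 of the 35, or 15 at the bound, and 0 lower, and 14 of the 30 detected on F1. The median was 0.85, and 0.84 at the bound. The summed linear signal of the 35 genes was 32490, 16240, 22410 and 29000 from chow to F2, so the chow array was highest in the sum. Apoa2, Apoa1 and Ttr were dim on chow, at 4.83, 4.70 and 4.92, so other members made up nearly all of the chow sum. Apoa2, an apolipoprotein of high density lipoprotein, read 4.83, 5.11, 9.96 and 11.61 from chow to F2, and Apoa1 4.70, 5.12, 9.12 and 10.78. Ttr, the carrier of thyroxine and retinol-binding protein, read 4.92, 4.42, 10.13 and 11.17. For all 3 the F1 and F2 arrays stood far above chow and F0, and F2 stood above F1 by between 1.05 and 1.65 log2 units. Serpina1c, a serum protease inhibitor, differed by 1.70, Plg, which encodes plasminogen, by 1.31 and Cps1, the entry enzyme of the urea cycle, was detected on F2 alone, at least 2.54-fold higher. Cyp7a1, the rate-limiting enzyme of bile acid synthesis, was detected on F2 alone at 5.78, at least 1.79-fold higher. Several abundant liver genes were not higher. The probes for Alb, Fgb and Fabp1 were not detected on any array. Trf differed by -0.25, Rbp4 by -0.53 and the cytochrome gene Cyp2e1 by -0.68, all genes that adipose tissue also expresses. The acute phase list, which also holds genes made outside the liver, was divided and lower in its median. Of 12 detected, 8 differences were below 0 and 4 above, and 4 passed 2-fold downward and 0 upward, around a median of -0.51. Saa1, Saa2 and Apcs were not detected on any array. Hamp, the hepcidin that restrains iron export, read 6.88 on F1 against 5.81 on F2, and the related gene Hamp2 7.22 against 5.44. Saa3, the serum amyloid A of adipose tissue and macrophages, read 7.52, 10.17, 10.79 and 9.68, and Orm2 differed by -1.13.

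The lists of B cell, plasma cell, T cell, NK, lymph node, mast cell, hepatocyte, pituitary and smooth muscle genes together held 73 of the 352 higher genes and 0 of the 91 lower ones. In that order the lists had 20, 8, 20, 9, 12, 9, 35, 3 and 17 detected members among the 10677 genes. So small a part of all genes would hold few lower genes by its share alone, and the 0 lies near that share. Over all 10677 genes, 3.3% were higher. The count of 73 is no test, because the lists were grouped after the data were seen. Some of their members, many B and T cell genes among them, were also detected through the F2 array alone. Without the members of these lists, 279 genes were higher and 91 lower. The higher lymphoid and liver-type transcripts and the hormones Prl and Gh stood on the F2 array beside every difference described for adipose genes below, and their part in those differences was not tested. Smooth muscle genes had a median of 0.19 over 17, with 4 at least 2-fold higher, among them Actg2, an actin of visceral muscle, at 1.68 and Myh11, its myosin, at 1.17. On the chow array both were brighter than on F2, at 13.41 and 11.93. Mesothelial genes, of which 6 of 10 were detected on F1, had a median of 0.34, or 0.17 at the bound. Of the 10, 0 were at least 2-fold apart, with Upk3b at 0.58 and Msln at 0.15. Erythroid genes had a median of 0.19 over 5. Ptn, which encodes the growth factor pleiotrophin, was a higher gene of the stromal list, at 10.56, 6.21, 5.80 and 8.15 from chow to F2, while the list's median was 0.03.

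Adipocyte transcripts were lower on the F2 array by less than 2-fold in nearly all cases. All 17 detected adipocyte markers were present on both arrays, as the labelled tissue requires, and all 17 differences were below 0, from -1.03 to -0.32, with a median of -0.56 against -0.06 for all genes. The summed linear signal of the markers was 83840, 118400, 107500 and 76000 from chow to F2. Plin1, the coat protein of the lipid droplet, read 9.24, 9.62, 9.34 and 8.31, and was the 1 marker at least 2-fold lower. The hormone genes differed by less. Lep, leptin, read 11.91, 14.51, 14.52 and 13.86, so the F2 array lay below F1 and F0 and above chow. Adipoq, adiponectin, read 13.64, 13.68, 13.49 and 13.17. Retn, resistin, read 6.80, 6.73, 5.87 and 5.0, lower on F1 than on the arrays of chow and F0 and lowest on F2. Aqp7, the glycerol channel, differed by -0.83, Slc2a4, the insulin-responsive glucose transporter, by -0.56 and Pparg, the master regulator of adipogenesis, by -0.47.

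Lipid metabolism genes showed the same small shift. For triglyceride assembly, 11 genes were detected, all on F1, and all 11 differences were below 0, from -0.91 to -0.13, with a median of -0.69 and 0 at least 2-fold apart. Dgat1 and Dgat2, which add the last fatty acid, differed by -0.91 and -0.70, and Gpd1, which makes the glycerol backbone, by -0.69. De novo fatty acid synthesis had a median of -0.52 over 15 genes, with 1 at least 2-fold lower. This was Mlxipl, which encodes the carbohydrate-responsive factor ChREBP and read 9.61, 8.37, 8.34 and 7.29 from chow to F2. Fasn, the fatty acid synthase, differed by -0.76, Thrsp by -0.78, Elovl6 by -0.46 and Scd1 by -0.28. On the breakdown side, lipolysis genes had a median of -0.50 over 10, with Lipe, hormone-sensitive lipase, at -0.66, Abhd5, the activator of adipose triglyceride lipase, at -0.64 and Hcar1, the lactate receptor that restrains lipolysis, at -0.72. Mitochondrial genes differed by less, with medians of -0.25 over 16 fatty acid oxidation genes and -0.23 over 18 respiratory chain genes, and 0 of either list at least 2-fold apart. Of 13 thermogenic genes with a probe, 7 were detected, with a median of -0.55, or -0.28 without background correction. Ucp1, the uncoupling protein, was detected on F1 at 5.40 and not on F2, at least 1.55-fold lower. Insulin signalling genes had a median of -0.22 over 14, with Irs3, an adipocyte insulin receptor substrate of rodents, at -0.96.

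**Figure D4:**
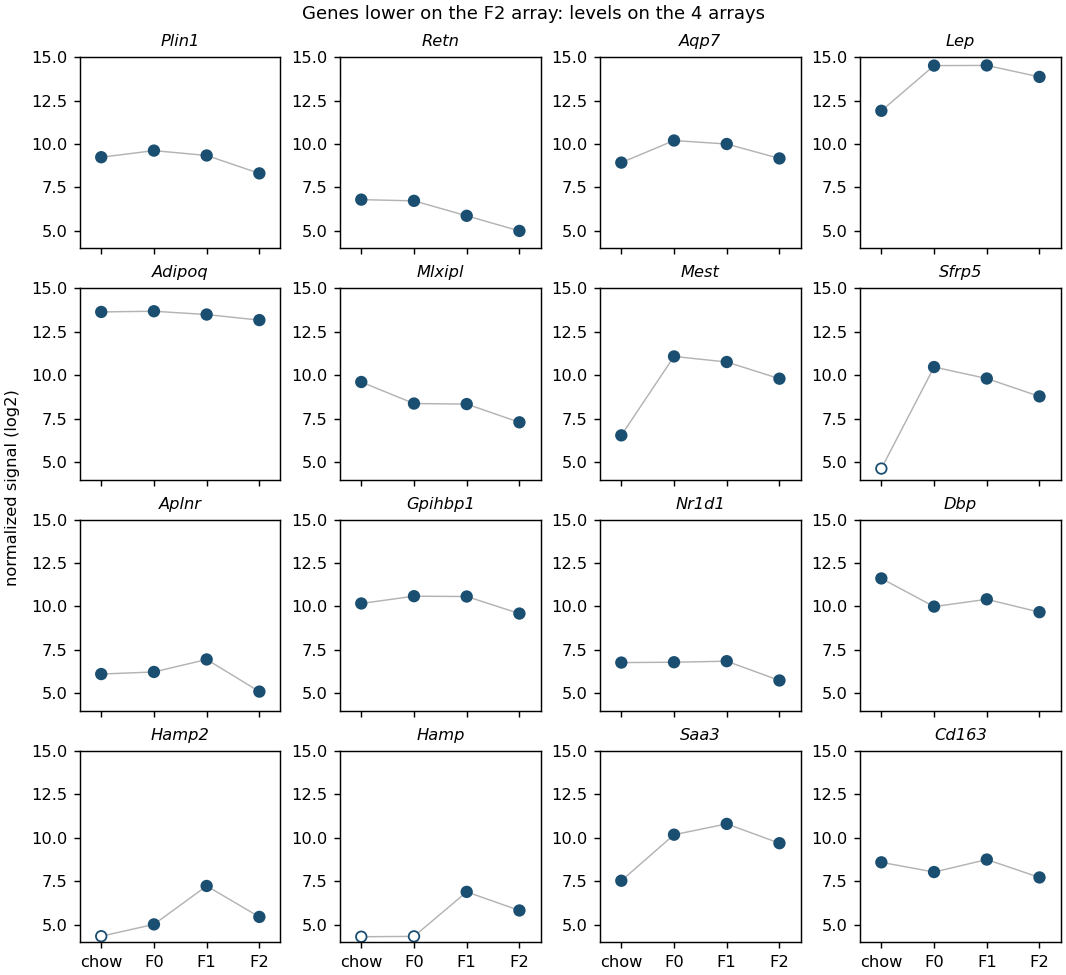
Normalized signal (log2, y axis) of 16 genes lower on the F2 array than on the F1 array, by array (x axis, 1 array per group; open symbols were not detected). The drop from F1 to F2 is about 1 log2 unit or less in most panels and reaches 1.84 in Aplnr, and Hamp and Hamp2 are highest on the F1 array.

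Endothelial genes and a part of the adipose expansion genes lay lower on F2. Of 14 detected expansion genes, 9 differences were below 0 and 5 above, and 2 passed 2-fold downward and 0 upward, around a median of -0.58. Sfrp5, a secreted Wnt antagonist of adipocytes, was not detected on chow and read 10.47, 9.81 and 8.78 on F0, F1 and F2. Peg3, an imprinted zinc finger gene, read 8.05, 10.08, 9.35 and 8.24, so that F2 lay near chow. The imprinted gene Mest differed by -0.96 and read 6.54 on chow, far below the 11.08, 10.76 and 9.80 of the high fat arrays. Dlk1, the preadipocyte inhibitor of the same list, differed by 0.90 and was brightest on chow, at 7.14. Endothelial genes had 20 of 21 differences below 0, 1 past 2-fold and a median of -0.55. Aplnr, the apelin receptor of sprouting endothelium, read 6.11, 6.23, 6.95 and 5.10 from chow to F2, 3.59-fold lower on F2 than on F1. Gpihbp1, which holds lipoprotein lipase on capillaries, differed by -0.99, Robo4 and the nitric oxide synthase gene Nos3 by -0.95 each and Cdh5, the endothelial cadherin, by -0.84. Pecam1, which platelets and leukocytes also express, differed by -0.07. Collagens had a median of -0.45 over 15 genes and 0 at least 2-fold apart, with Col5a3 at -0.79, the basement membrane chain Col4a2 at -0.67 and the fibrillar chain Col1a2 at 0.08.

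The largest decreases lay outside these groups in part. Ct55, a cancer/testis antigen gene, read 8.02, 7.90 and 6.04 on F0, F1 and F2, and was not detected on chow. Its difference of -1.86 was the largest decrease of all 10677 genes. Tcf15, a transcription factor of capillary endothelium and mesoderm, went from 6.75 to 5.15, Ric3, a chaperone of nicotinic receptors, from 8.13 to 6.60 (-1.52, against -1.10 when its probes were averaged) and Amhr2, the receptor of anti-Müllerian hormone, from 7.33 to 5.89. Several others have known roles in fat. Acvr1c, the activin-type receptor ALK7 of adipocytes, went from 8.79 to 7.46, Tshr, the thyrotropin receptor, from 8.01 to 6.75, Pank3, which makes coenzyme A, from 8.38 to 7.0 and Eci3, a peroxisomal enzyme of unsaturated fatty acid breakdown, from 7.22 to 5.89. Pmepa1, an inhibitor of TGF-beta signalling, differed by -1.34. Of genes detected on F1 but not on F2, Hbegf, a ligand of the EGF receptor, was at least 2.11-fold lower and Syt12, a synaptotagmin, at least 2.02-fold lower.

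Clock genes were measured in tissue with no stated hour of collection. Of 13 detected, 1 passed 2-fold downward and 0 upward, around a median of -0.32. Nr1d1, which encodes the repressor REV-ERB alpha, read 6.77, 6.79, 6.85 and 5.74 from chow to F2, and the F2 array alone was low. Dbp, an output factor of the clock, read 11.61, 9.99, 10.41 and 9.67. Per3 was detected on F1 at 5.29 and not on F2, at least 1.44-fold lower, and Arntl, which encodes the activator BMAL1, differed by 0.44. Among other lists, 25 detected genes of cytosolic ribosomal proteins all differed by more than 0, from 0.02 to 0.59, with a median of 0.29. Cell cycle genes had a median of 0.19 over 23 and 0 at least 2-fold apart. Interferon-stimulated genes had a median of 0.11 over 21, with Tap1, the peptide transporter of antigen presentation, the 1 member at least 2-fold higher at 1.34. Genes of the DNA methylation machinery had a median of 0.13 over 8. Mbd4, a DNA glycosylase that binds methylated CpG, was not detected on F1 and read 6.01 on F2, at least 2.1-fold higher. It read 6.14 on chow and 5.31 on F0, so F2 lay near chow and F1 was the lowest array. The maintenance methyltransferase gene Dnmt1 differed by 0.23. The reference gene Gapdh differed by -0.09, and Actb by -0.17 by its brightest probe and by -0.55 when its 5 probes, which disagreed in sign, were averaged.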

How the data were processed

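Gene expression was measured in 4 RNA pools, 1 array each, grouped by the labels' diet and generation. Each probe of the deposited table has a linear intensity and a detection p-value on every array. Per the labels' protocols, RNA was extracted with RNAiso Plus and labelled with the Illumina TotalPrep kit, and GenomeStudio 2010.2 is the tool in the submitters' processing notes. The deposited intensities have a mean of 274.4 on each array, a scaling that the labels do not state, and 37.8 to 40.9% of 45281 probes were detected. The deposited detection p-value moves in steps of 1 in 936. The authors' value table holds an intensity that rises linearly with that of the first table (slopes 0.987 to 1.01), with column medians of 6.17 (chow), 5.69 (F0), 5.60 (F1) and 6.24 (F2) and 25.8 to 27.8% of values below 0. It is on a linear scale and not centred by probe, and served as an alternative. Columns of per-sample values not used here number 0.

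Background was corrected with nec of limma 3.58.1 in R 4.3.3 (offset 16, with the negative controls' mean and spread derived from the detection p-values), followed by quantile normalization over the 4 arrays and log2. The offset makes folds of dim genes too small. The procedure was tested on simulated data. Of the probes, 34885 had 1 gene symbol, 18 several and 10378 none, and 34807 were named through the gene ID. A gene was represented by its brightest probe, and its detection used any probe. A fold given as "at least" is set against the lowest detected log2 signal of the dimmer array, 4.94 on F1 and 4.77 on F2. Sums of a list are of linear normalized signals.

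Candidates to be named were the 20 largest differences each way (detection on both arrays, a regular symbol, probes of like sign), at most 10 bounds per direction, at most 6 members of each of 49 lists, and 38 genes given throughout, and a part of them is printed. Defining members of lists outside this rule (such as Cd22, Btk, Vpreb3, Blnk, Xbp1, Foxp3, Csf1r, H2-Aa, Cyp2e1 and Pecam1) were added after their values were seen, as was the Pit-1 motif. The members and lists were chosen with earlier results of these data known. Promoters, of 300 bases, came from RefSeq (GRCm38.p6), which gave them for 8616 of the 10677 genes. Of the other motifs searched, the HNF1 motif GTTAATNAT stood in 1 of 27 hepatocyte gene promoters, 3.7% against 0.836% of all promoters. In 11 clock gene promoters, the E-box CACGTG stood in 3, 27.3% against 7.24%. The D-box TTATGTAA stood in 1 of these 11, 9.09% against 0.955%. Alternatives changed the background step, offset, normalization, starting table, probe rule, detection limit and fold, and, added after the data were seen, left out lists of other tissues or set undetected genes to the bound.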

Additional observations from a re-analysis of the deposited data

Results flagged for a closer look

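Among probes with no gene symbol, which the comparison of named genes leaves out, 4 had the largest increases of those with an F2 signal at least 2-fold above the chow control. ILMN_1247021 read 7.0, 6.04, 5.44 and 11.30 from chow to F2, a log2 difference of 5.86 between F2 and F1. ILMN_2631505 read 7.53, 7.43, 7.48 and 13.20, a difference of 5.73. ILMN_1222531 read 5.35 on the chow array and 10.35 on the F2 array and was not detected on F0 and F1, so its difference was at least 5.42. ILMN_2609403, also not detected on F0 and F1, read 5.99 on chow and 10.24 on F2, a difference of at least 5.30.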

How the results depend on the processing

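No paired analysis was possible because each group was 1 array, and for the same reason no sample could be left out. Against 352 genes at least 2-fold higher and 91 lower, 443 in all, there were 188, 25 and 213 without background correction, 201, 28 and 229 with an offset of 50, 792, 871 and 1663 at a fold of 1.5, and 146, 4 and 150 at a fold of 3. The authors' value table gave 139 lower. The other 26 of 39 alternative counts, among them those with 3 other normalizations, the mean over probes, a detection limit of 0.05 and, as alternatives added after the data were seen, the bound and the lists of other tissues left out, stayed within 1.5 times. Of 46 list medians over at least 5 members, 6 that lay at or under 0.15 reached or crossed 0 under some alternative (lipid-associated macrophage, neutrophil, complement, skeletal muscle, stromal progenitor and matrix remodelling genes) and the others kept their sign. In all, 393 of 414 alternative medians moved by less than the probe gauge. Those that moved by more are given here in the order of no background correction and an offset of 50. They were 1.81 and 1.91 for B cell genes, 0.90 and 0.96 for T cell genes, 0.94 and 0.98 for chemokine receptors, 0.72 and 0.76 for plasma cell genes, 0.56 and 0.61 for NK genes, and 0.60 and 0.55 for lymph node genes, with 1.35 for mast cell genes without background correction. With the authors' value table the medians were 3.32 for B cell, 2.09 for T cell, 1.5 for plasma cell and 1.32 for NK genes. The mean over probes gave 2.21 for B cell genes, a detection limit of 0.05 gave 0.59 for NK genes, and undetected members at the lowest detected signal gave 1.40 for T cell and 0.62 for lymph node genes. Of 2584 alternative values of 323 named genes, 2291 moved by less than the gauge, 292 moved by more, and Cxcl12 turned from -0.79 to 0.11 with the mean over its probes; the causes were not tested. Signals near the lowest detected level limit all folds of genes that 1 array did not detect.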

Other observations

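Probes without a gene symbol differed between the arrays more often on the higher side than named genes did. Of 2894 such probes detected on F1 or F2, 245 passed 2-fold upward on the F2 array, or 8.47%, and 28 downward, or 0.968%, beside 3.3% and 0.852% of named genes, which were counted per gene and not per probe. The F1 array stood apart by 4 probes, none of them with a symbol, that were at least 4-fold dimmer there than on each other array. ILMN_2523841 read 11.88, 11.81, 7.06 and 12.16 from chow to F2, and ILMN_2703329 read 11.24, 11.18, 6.43 and 11.51. ILMN_2743884 and ILMN_2743883 read 5.08 and 5.49 on F1, and from 9.17 to 9.92 on the other arrays.

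Of 20 ovary, oviduct and uterus genes with a probe, 7 were detected on F1 or F2, with 4 differences above 0, 3 below and a median of 0.19, and 2 were at least 2-fold higher, or 1 at the bound. Oosp1, an oocyte-secreted protein, was detected on the F2 array alone at 5.79, at least 1.81-fold higher than on F1, whereas the oocyte factor gene Gdf9 went from 6.10 to 5.33. Zp2, Zp3 and Bmp15, other oocyte genes, were not detected on any array. Cyp17a1, a steroid-forming enzyme of ovary and testis, read 5.02 on F1 and 6.19 on F2 and was not detected on chow and F0. In the skeletal muscle list, 2 of 10 detected genes counted as at least 2-fold lower on F2, or 1 at the bound: Pvalb, a calcium buffer, went from 9.92 to 8.71, and Tnnc2, a troponin, was detected on F1 at 5.65 and not on F2, at least 1.84-fold lower.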
